A study of Mus musculus with 10 samples.

Results

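The genes described here are 35 genes of the lysosome, taken by symbol from the 17171 genes measured in the mouse PyMt breast cancer cell line. They comprise 8 hydrolases of sugars and glycoconjugates, 5 enzymes or helpers of lipid breakdown, 8 proteases, 6 membrane proteins, 6 parts of the proton pump and 2 regulators. All 35 genes were found in the table, and all 35 passed the filter on low values (at least 1 FPKM in at least 4 libraries), as did 11169 genes in all.

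The PyMt line comes from a mammary tumor of the MMTV-PyMt model, in which the polyoma middle T oncogene is driven in mammary epithelium. The cells were grown in low adherence plates with insulin, in supernatant of CD4+ T cells that had been stimulated through CD3 and CD28 in the presence of the cytokine TSLP. In the 6 test libraries the T cells came from Tslp-PyMttg mice, which carry a Tslp transgene. In the 4 control libraries they came from mice that the labels give as Tslp-PyMttg TslprKO and PyMttg, without saying which library had which. The figure captions of the study instead give the control (n = 4) as supernatant of TslprKO T cells alone. By the labels, a control library may differ from another in the genotype of its T cells. Sets of 2 libraries carry the tags Test1, Test2, Test3, Control and Blank. Both the Control-tagged and the Blank-tagged libraries are titled as control supernatant, and the tag Blank is not explained. One cell line was used throughout, and nothing states that libraries came from separate cultures, so a p-value here measures the spread between libraries, which may be technical.

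FPKM (fragments per kilobase of transcript, scaled to the mapped reads) summed to 419709 to 487591 in test libraries and 414783 to 425896 in control libraries, with 14074 to 14964 and 14377 to 14925 genes above 0. Read totals are not given, so the depth behind a value is unknown. The epithelial keratin Krt18 had 730 to 1882 FPKM in test libraries and 754 to 1779 in control libraries. The epithelial adhesion gene Epcam was low, at 4.97 to 8.19 and 3.59 to 5.78 FPKM. Krt8 had 375 to 986 and 526 to 992 FPKM, and Cdh1 8.69 to 14.2 and 11.2 to 13.0 FPKM. The last of the 5 epithelial markers found, Cldn4, had 5.44 to 11.6 and 2.23 to 4.65 FPKM. Cldn4 was higher in test libraries (log2 fold change 1.05, adjusted p = 0.0148, limma). Relative to the Control-tagged libraries alone, Cldn4 was higher (0.79, adjusted p = 0.0239) and Krt8 lower (-0.52, adjusted p = 0.0427, limma). Of 10 macrophage markers, which also mark cells rich in lysosomes, 6 are among the table's genes, none at 0 in every library, and 1 passed the filter, while the other 4 were not analysed here. Their summed level was 6.34 to 13.0 FPKM in test and 5.78 to 9.83 in control libraries, most of it from Cd14. Of 9 T cell markers 3 are among the table's genes, with sums of 2.38 to 17.0 and 1.24 to 5.20 FPKM, most of it from Cd3d in the highest library. The part of such cells in the values below was not tested.

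Lysosomes are acidic compartments in which enzymes break down material delivered by endocytosis and autophagy. A membrane-bound proton pump, the V-ATPase, acidifies the interior, heavily glycosylated membrane proteins line it, and the transcription factor TFEB drives many lysosomal genes through a short promoter element called CLEAR, which contains CACGTG. Lysosomal content often grows in senescent cells. The stain known as senescence-associated beta-galactosidase reads the activity of the lysosomal enzyme encoded by Glb1, which makes the level of Glb1 and of its neighbours in the pathway a question for cells that stop dividing.

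The 35 genes spanned a wide range of levels, which can be compared between genes because FPKM is scaled by transcript length. The tetraspanin gene Cd63 had the highest mean over the 10 libraries, 660 FPKM. It was followed by Ctsd (cathepsin D, an aspartic protease) at 427, Lamp1 (an abundant glycoprotein of the lysosomal membrane) at 347, Psap (prosaposin, the precursor of proteins that present sphingolipids to their enzymes) at 338 and Ctsl (cathepsin L, a cysteine protease) at 333 FPKM. In all, 10 genes had means over 100 FPKM and 5 had means under 10. The lowest were Cd68 (macrosialin, a glycoprotein of endolysosomes) at 7.55, Tfeb at 4.05, Neu1 (a sialidase) at 3.59 and Ctsc (cathepsin C, a dipeptidyl peptidase) at 1.27 FPKM. Together the 35 genes made up 0.753 to 0.904% of all FPKM in test libraries and 0.743 to 0.848% in control libraries, ranges that overlap. For 5 genes the highest of the 10 libraries was more than 2 times the lowest: Neu1 (3.16 times), Tfeb (2.95), Gla (2.71), Ctsc (2.31) and Cd68 (2.08).

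**Figure D1:**
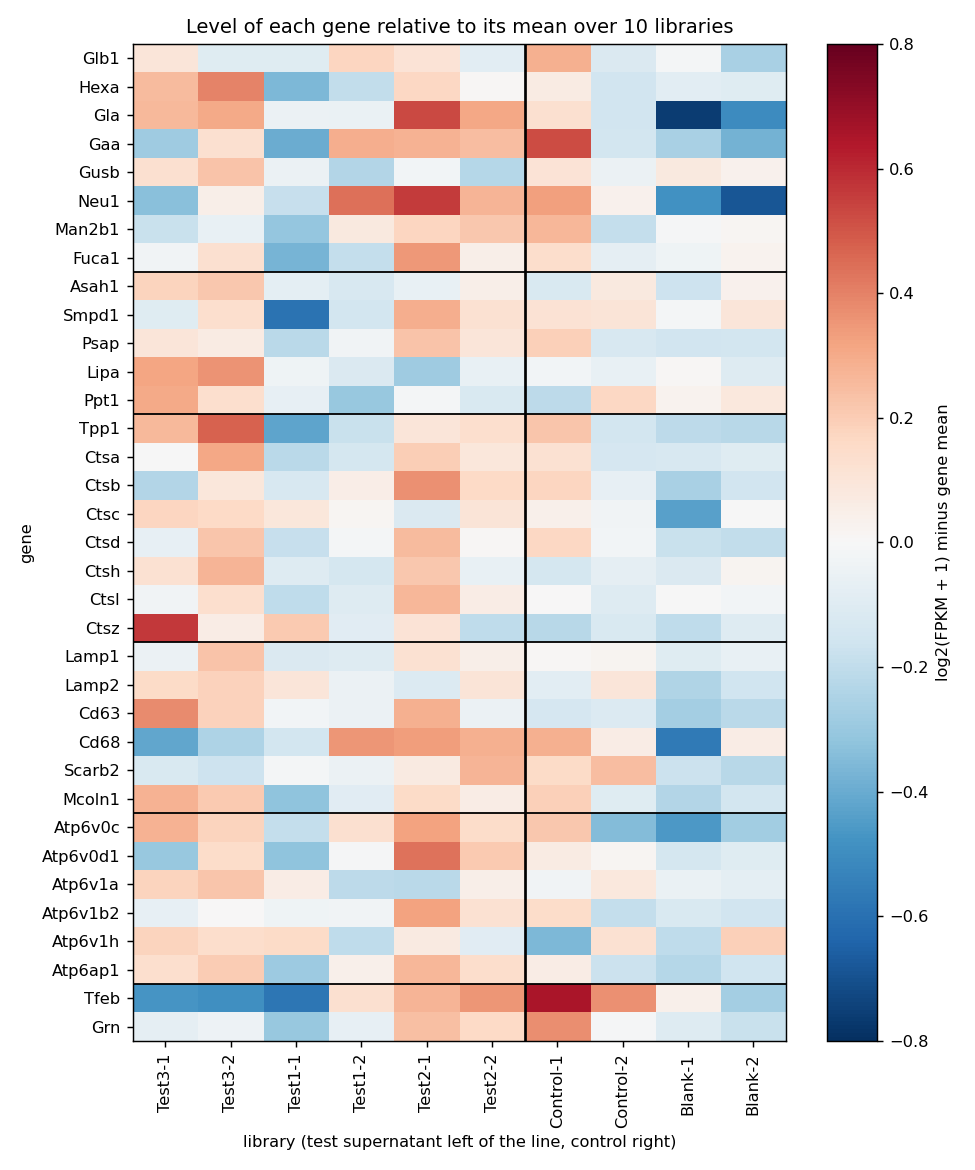
Each row is one of the 35 lysosomal genes, grouped by role between the horizontal lines, and each column is a library, with test libraries left of the vertical line. Color gives log2(FPKM + 1) minus the mean of that gene over 10 libraries. Gla and Neu1 are lowest in the Blank-tagged libraries, Lipa is highest in Test3, and many genes are low in Test1-1 and high in Test2-1 and Control-1.

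The first question was whether lysosomal genes changed in cells given test supernatant. No member was called higher or lower in test than in control libraries (limma on log2(FPKM + 1), adjusted p under 0.05), where 7.87% of all 11169 genes were called, 2.95% higher and 4.92% lower. At an unadjusted p under 0.05 there were 3 members, Gla, Cd63 and Atp6v0c, all higher in test, against 25.3% of all genes. The log2 fold changes ran from -0.33 (Tfeb) to 0.54 (Gla), and 34 of the 35 lay between the 5th and 95th percentile of all genes. The 95% confidence interval lay within 1.5-fold in either direction for 31 genes and within 2-fold for all 35. Here and below such bounds are on the log2(FPKM + 1) scale, which understates changes of low genes such as Ctsc. The 4 genes whose interval reached beyond 1.5-fold were Gla, Neu1, Atp6v0c and Tfeb. In bulk RNA a change in the level per cell and a change in the share of cells that express a gene cannot be told apart.

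Small differences leaned to the test side. The fold change was positive for 27 of the 35 genes and negative for 8, with a median of 0.10 on the log2 scale, while 44.4% of all genes were positive with a median of -0.03. Scaling libraries to equal totals lowered both medians, to 0.03 for the 35 genes (22 positive) and -0.10 for all genes. Quantile normalization gave 0.06 (22 positive) and -0.03, and removal of the GC and length trend gave 0.12 (29 of 34 positive) and 0.01. The median of the 35 genes moved with the libraries used. It was 0.01 (21 positive) against the Control-tagged libraries alone, where all genes had -0.03, and 0.16 (29 positive) against the Blank-tagged libraries alone, where all genes had -0.05. It was 0.16 (33 positive) without the Test1 set, 0.05 (23 positive) without Test2 and 0.05 (24 positive) without Test3. With single libraries left out it ran between 0.06 without Blank-1 (26 positive) and 0.16 without Control-1 (31 positive).

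**Figure D2:**
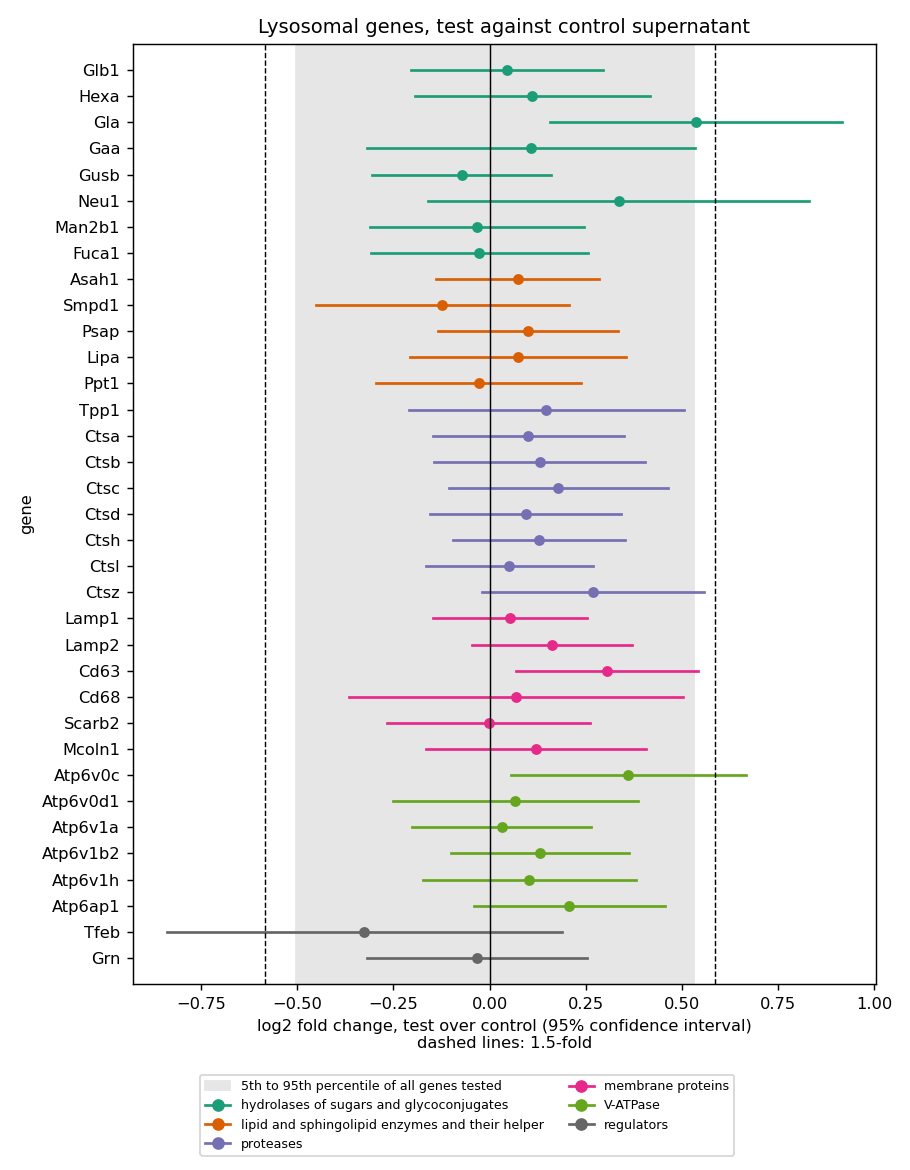
Points give the log2 fold change of each gene, 6 test libraries over 4 control libraries, and bars the 95% confidence interval from limma, colored by role. The intervals take libraries of a set as independent and may be too narrow. The grey band is the 5th to 95th percentile of the 11169 genes tested and the dashed lines mark 1.5-fold. Of 35 intervals, 31 stay inside the dashed lines, and Gla, Cd63 and Atp6v0c have intervals above 0 before adjustment.

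Among the hydrolases of sugars and glycoconjugates, 5 of 8 had a positive and 3 a negative fold change, with a median of 0.08 and no call. Glb1 (beta-galactosidase) lies on chromosome 9 at 114401078 to 114474379 of GRCm38.p6, the genome build also called mm10. It had 15.4 FPKM in the lowest, 16.7 at the median and 18.8 in the highest of 6 test libraries, against 20.4 and 15.2 in the Control-tagged and 16.4 and 13.7 in the Blank-tagged libraries. The groups overlapped, and both the highest and the lowest library were controls. Glb1 averaged 16.8 ± 1.51 FPKM in test and 16.4 ± 2.86 in control libraries (SD, n = 6 and 4). Its log2 fold change was 0.04 ± 0.11 (SE), with a 95% interval of -0.20 to 0.29 and an adjusted p of 0.849 (limma). The sign of this value changed with equal totals (-0.02), with the Control-tagged libraries alone as control (-0.07) and without Blank-2 (-0.03), so the data gave no direction for Glb1. Its locus overlaps Tmppe and Gm30254, and counting by strand is not stated, so reads from these genes cannot be told apart.

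The promoters of 4 genes that hold CACGTG, which the TFEB element contains, and are described with values are shown here. TFEB is itself one of the 35 genes. Each is 300 bases of the RefSeq promoter on GRCm38.p6, 250 before to 50 after the annotated start, printed 5' to 3' on the strand of the gene, with each CACGTG in capitals.
Glb1, chr9:114400828-114401127, plus strand: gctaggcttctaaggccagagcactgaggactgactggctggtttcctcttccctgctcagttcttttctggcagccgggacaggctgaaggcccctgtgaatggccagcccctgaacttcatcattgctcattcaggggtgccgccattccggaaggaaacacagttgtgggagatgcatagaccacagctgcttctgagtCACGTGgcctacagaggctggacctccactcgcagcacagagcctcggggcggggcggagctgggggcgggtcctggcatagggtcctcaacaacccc
Gla, chrX:134600956-134601255, minus strand: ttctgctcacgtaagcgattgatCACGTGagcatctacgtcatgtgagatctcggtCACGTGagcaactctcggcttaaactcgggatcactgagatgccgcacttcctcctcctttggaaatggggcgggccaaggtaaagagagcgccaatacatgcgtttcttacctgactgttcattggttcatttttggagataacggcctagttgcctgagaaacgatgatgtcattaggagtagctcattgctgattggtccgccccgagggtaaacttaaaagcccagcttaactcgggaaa
Lamp1, chr8:13158911-13159210, plus strand: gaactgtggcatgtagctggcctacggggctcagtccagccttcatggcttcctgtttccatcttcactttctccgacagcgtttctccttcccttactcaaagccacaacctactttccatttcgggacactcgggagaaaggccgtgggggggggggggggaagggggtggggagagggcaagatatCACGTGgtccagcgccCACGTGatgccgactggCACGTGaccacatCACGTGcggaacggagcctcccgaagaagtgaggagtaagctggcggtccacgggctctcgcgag
Ctsd, chr7:142387778-142388077, minus strand: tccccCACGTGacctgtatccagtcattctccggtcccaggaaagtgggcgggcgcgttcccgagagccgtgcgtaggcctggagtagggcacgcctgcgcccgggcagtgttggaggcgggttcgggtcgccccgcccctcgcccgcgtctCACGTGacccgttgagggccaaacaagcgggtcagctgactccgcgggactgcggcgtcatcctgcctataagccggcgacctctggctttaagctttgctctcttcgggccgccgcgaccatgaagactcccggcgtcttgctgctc
The CACGTG of Glb1 began 48 bases before the start, those of Gla 227 and 194 bases before it, those of Lamp1 61, 45, 28 and 15 bases before it and those of Ctsd 245 and 98 bases before it. Lamp1 thus carried 4 copies within the 61 bases next to its start, the most of any promoter among the 35 genes.

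Gla (alpha-galactosidase A, which cleaves galactose from glycolipids) had the largest positive fold change of the 35. It had 9.15 FPKM in the lowest, 11.8 at the median and 14.2 in the highest test library, against 10.5 and 8.49 in Control-tagged and 5.24 and 6.43 in Blank-tagged libraries. Only 1 control library, Control-1, reached into the range of the test libraries, and the Blank-tagged libraries were the lowest of all 10. The mean was 11.4 ± 1.93 FPKM in test and 7.67 ± 2.33 in control libraries (SD, n = 6 and 4). The log2 fold change was 0.54 ± 0.17 (SE), with an adjusted p of 0.0815 from limma over all genes and an exact two-sided permutation p of 0.0238 over the 210 ways to divide the libraries. Against the Blank-tagged libraries alone the value was 0.85 (adjusted p = 0.00752, limma), against the Control-tagged libraries alone 0.23 (adjusted p = 0.775), and without Control-1 it was 0.69 (adjusted p = 0.0234). Across all alternatives the adjusted p ran between 0.00752 and 0.775, and it was 0.394 with the label set as the unit (limma). The permutation p was unadjusted, took libraries of a set as independent, and belongs to the largest positive fold change of the 35. Neu1 had a log2 fold change of 0.34 with an interval of -0.16 to 0.83. The other members of this group, Hexa (the alpha subunit of beta-hexosaminidase), Gaa (acid alpha-glucosidase), Gusb (beta-glucuronidase), Man2b1 (lysosomal alpha-mannosidase) and Fuca1 (an alpha-fucosidase), lay between -0.07 and 0.11.

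The 5 genes of lipid breakdown lay between -0.12 and 0.10 on the log2 scale. They are Asah1 (acid ceramidase), Smpd1 (acid sphingomyelinase), Psap, Lipa (lysosomal acid lipase) and Ppt1 (a thioesterase that removes palmitate from proteins). Their summed level was 483 to 599 FPKM in test libraries (median 579) and 496 to 573 in control libraries (median 523), and the ranges overlapped. All 5 intervals lay within 1.5-fold.

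The 8 proteases, Tpp1 (tripeptidyl peptidase) and the cathepsins Ctsa, Ctsb, Ctsc, Ctsd, Ctsh, Ctsl and Ctsz, had fold changes from 0.05 to 0.27 on the log2 scale. All 8 were positive, but only 7 with equal totals and 6 with quantile normalization, and no protease passed the test. Ctsd had 374 FPKM in the lowest, 423 at the median and 506 in the highest test library, against 477 and 418 in Control-tagged and 375 and 370 in Blank-tagged libraries. Its 2 Control-tagged libraries thus stood inside the range of the test libraries. So did Blank-1, at 374.65 FPKM against 373.84 in the lowest test library. Its log2 fold change was 0.09 ± 0.11 (SE), with an interval of -0.15 to 0.34 and an adjusted p of 0.654 (limma), and it was negative with quantile normalization and against Control-tagged libraries alone (-0.04 in each). Ctsz (cathepsin Z, a carboxypeptidase) had the largest value of the group, 0.27 with an adjusted p of 0.231 (limma). It had 55.1 FPKM in the lowest and 94.7 in the highest test library, with 5 of 6 test libraries above all controls, which were 54.5 and 58.4 in Control-tagged and 55.2 and 59.3 in Blank-tagged libraries. The spread of Ctsz was thus wider among test than among control libraries, and its 2 highest values, 94.7 and 73.7 FPKM, were in Test3-1 and Test1-1. Ctsz overlaps Nelfcd.

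Of the 6 membrane proteins 5 had positive fold changes. Cd63, a tetraspanin of late endosomes and of secreted vesicles, was the single member whose test libraries all lay above every control library, which 3.21% of all genes showed. In 6.28% of all genes every test library lay below every control, and 9.48% had no overlap in either direction, while no member lay below. It had 632 FPKM in the lowest, 693 at the median and 850 in the highest test library, against 594 and 607 in Control-tagged and 541 and 562 in Blank-tagged libraries. The gap was narrow, with 632 FPKM in the lowest test library, Test1-2, and 607 FPKM in the highest control, Control-2. Cd63 averaged 716 ± 93.9 FPKM in test and 576 ± 29.7 in control libraries (SD, n = 6 and 4). Its log2 fold change was 0.31 ± 0.11 (SE), with an adjusted p of 0.106 (limma) and an exact permutation p of 0.0238, unadjusted. With the label set as the unit the adjusted p of Cd63 was 0.42 (limma). A named pseudogene, Cd63-ps, could share its reads. Cd63, Atp6v0c and Ctsz, and Hexa and Scarb2 below, are singled out after their values were seen.

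Lamp1 had 319 FPKM in the lowest, 345 at the median and 406 in the highest test library, against 349 and 351 in Control-tagged and 323 and 332 in Blank-tagged libraries. All 4 control libraries lay inside the range of the test libraries. Its log2 fold change was 0.05 ± 0.09 (SE), with an interval of -0.15 to 0.25 and an adjusted p of 0.761 (limma), and it was negative with equal totals (-0.02) and with quantile normalization (-0.06). Lamp2, the partner of Lamp1 in the membrane, had a value of 0.16, Mcoln1 (the calcium channel TRPML1) 0.12, Cd68 0.07 and Scarb2 (the receptor that carries glucocerebrosidase to lysosomes) 0.00.

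The 6 genes of the V-ATPase had positive fold changes, between 0.03 and 0.36, with no call. With equal totals 4 of the 6 were positive, and 4 of 6 against the Control-tagged libraries alone. Their summed level was 363 to 492 FPKM in test libraries (median 454) and 328 to 442 in control libraries (median 358). The ranges overlapped through Control-1, the highest control, which exceeded both Test1 libraries. Atp6v0c, the proteolipid that forms the rotor ring in the membrane, had 182 FPKM in the lowest, 233 at the median and 260 in the highest test library, against 242 and 163 in Control-tagged and 151 and 172 in Blank-tagged libraries. Without Control-1 every test library lay above every control. Its log2 fold change was 0.36 ± 0.14 (SE), with an adjusted p of 0.136 (limma) and an exact permutation p of 0.0524. It was called against the Blank-tagged libraries alone (0.51, adjusted p = 0.0329) and without Control-1 (0.51, adjusted p = 0.0209), while its adjusted p ran up to 0.806 in other alternatives. Named pseudogenes of Atp6v0c could share its reads. Atp6ap1, an accessory protein of the pump, had a value of 0.21, Atp6v1b2 0.13, Atp6v1h 0.10, Atp6v0d1 0.07 and Atp6v1a 0.03. Atp6v1a, Atp6v1b2 and Atp6v1h encode subunits of the part that splits ATP in the cytosol, and Atp6v0d1 a subunit of the part in the membrane.

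Both regulators had negative fold changes, and neither passed the test. Tfeb had 2.25 FPKM in the lowest, 3.40 at the median and 5.21 in the highest test library, against 6.63 and 5.24 in Control-tagged and 3.99 and 3.01 in Blank-tagged libraries. The Control-tagged libraries were the highest 2 of all 10, and the Blank-tagged libraries lay within the test range. The log2 fold change was -0.33 ± 0.24 (SE), with an interval of -0.84 to 0.19 and an adjusted p of 0.429 (limma), and it was -0.01 against the Blank-tagged libraries alone. Grn (progranulin, a secreted and lysosomal glycoprotein) had a value of -0.03.

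**Figure D3:**
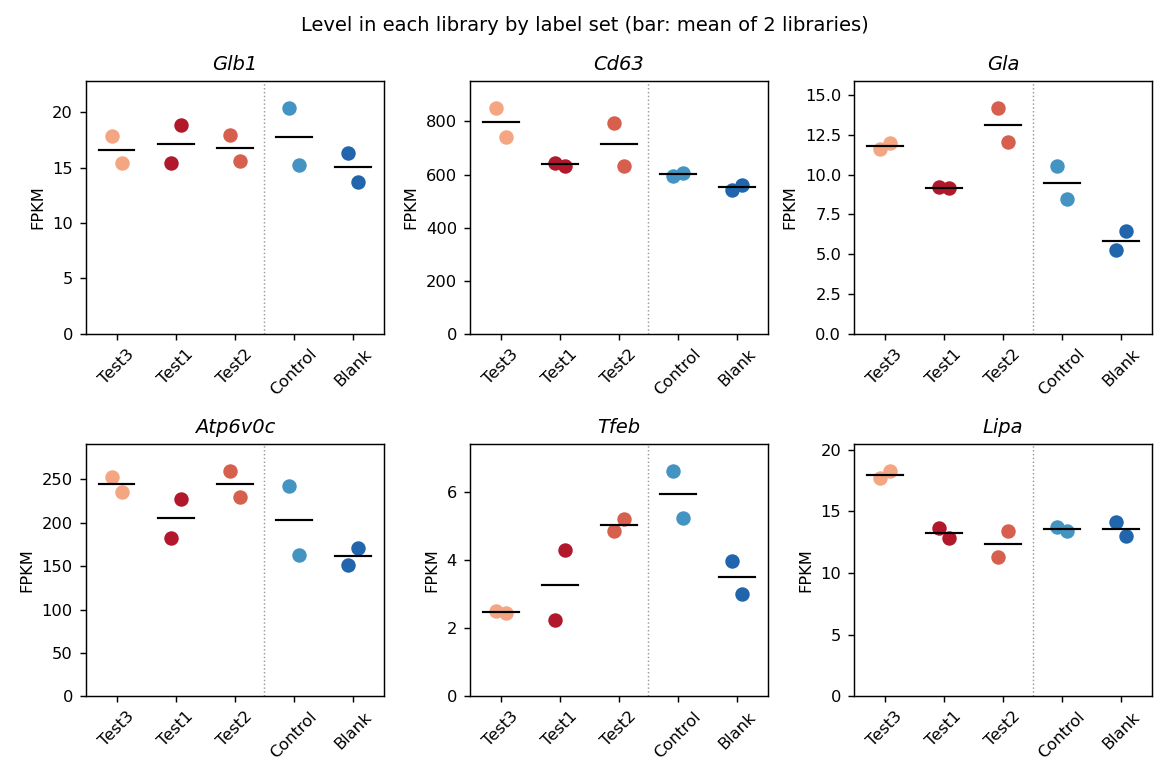
FPKM of 6 lysosomal genes in each library, by label set, with test sets left and control sets right of the dotted line. Dots are libraries and bars the mean of 2 libraries. Cd63 in test libraries stays above all 4 controls, Gla is lowest in Blank-tagged libraries, Tfeb is highest in Control-tagged libraries, Lipa is highest in Test3, and Glb1 overlaps throughout.

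Genes of the same pathway outside the 35 were examined alongside. Of 87 further genes found in the table (enzymes, membrane proteins, pump subunits, sorting receptors, the TFEB family with lysosomal mTORC1, and autophagy), 77 were tested, of which 1 was called higher and 2 lower in test than in control libraries, with a median of 0.04 (all genes 2.95% higher, 4.92% lower and a median of -0.03). Atg7, which conjugates autophagy proteins, was higher (9.65 to 11.1 FPKM in test against 7.03 to 9.11 in control libraries, log2 fold change 0.34, adjusted p = 0.0412 from limma). Tpcn1, an endolysosomal cation channel, was lower (13.3 to 18.9 against 18.5 to 26.0 FPKM, -0.51, adjusted p = 0.0340). Sort1, the sorting receptor sortilin, was lower (1.83 to 2.45 against 3.09 to 3.99 FPKM, -0.49, adjusted p = 0.0197). Against the Control-tagged libraries alone, 0 of the 77 genes were called in either direction, with a median of -0.02 (all genes -0.03). The 10 other V-ATPase subunits tested had a median of 0.22 with no call, the largest median of these lists. Against the Control-tagged libraries alone their median was 0.11. The other lists had medians of -0.01 (enzymes), 0.09 (membrane proteins), -0.06 (sorting), 0.02 (TFEB family and mTORC1) and 0.04 (autophagy) between test and control.

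The second question was how the test sets stood against the Control-tagged libraries alone. No member was called in either direction, where 3.61% of all genes were called, 2% higher and 1.61% lower. A single member, Tfeb, had an unadjusted p under 0.05, against 16.4% of all genes. The fold change was positive for 21 and negative for 14 genes, with a median of 0.01 (all genes -0.03). With equal totals the median was -0.04 (13 positive) and that of all genes -0.08, and with quantile normalization they were -0.02 (15 positive) and -0.01. The interval lay within 1.5-fold for 32 and within 2-fold for 34 of the 35 genes.

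Tfeb had the largest difference in this comparison. Its means were 3.28, 5.04 and 2.48 FPKM in Test1, Test2 and Test3, against 5.94 FPKM in Control-tagged libraries. The difference was -0.64 ± 0.19 on the log2 scale (SE), with an interval of -1.05 to -0.22 and an adjusted p of 0.105 (limma). It was negative in every alternative run. It passed the threshold without Test1-2 (-0.76, adjusted p = 0.0277) and after the dependence of each library on transcript GC and length had been removed (-0.56, adjusted p = 0.0452), within a range of adjusted p of 0.0277 to 0.481. A fit of test against Control-tagged libraries that did not separate the test sets gave the same difference with an adjusted p of 0.521 (limma). At 2.25 to 6.63 FPKM Tfeb was among the lowest of the 35 genes. Glb1 had a difference of -0.07, Ctsd -0.04 and Lamp1 0.01, with intervals within 1.5-fold.

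The third comparison set the Control-tagged against the Blank-tagged libraries, both of which carry the title of control supernatant. Gla was the 1 member called higher in Control-tagged libraries and no member was called lower, where 5.94% of all genes were called, 4.55% higher and 1.39% lower. The fold change was positive for 29 of 35 genes, with a median of 0.14 (all genes -0.03, with 46.0% positive). At an unadjusted p under 0.05 there were 4 members, against 18.6% of all genes. All 6 membrane proteins and both regulators were positive. With 2 libraries on each side the intervals were wider, within 1.5-fold for 22 and within 2-fold for 32 genes.

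Gla had 10.5 and 8.49 FPKM in Control-tagged libraries, against 5.24 and 6.43 in Blank-tagged libraries, so that both Control-tagged libraries were higher. The difference was 0.62 ± 0.15 on the log2 scale (SE), with an adjusted p of 0.0419 (limma). The call was lost when any library but Control-2 was left out (adjusted p up to 0.326 without Blank-1), with equal totals (0.0553) and with no filter (0.0762). Neu1 had 4.55 and 3.54 FPKM in Control-tagged libraries, against 2.17 and 1.75 in Blank-tagged libraries. The difference of Neu1 was 0.77 ± 0.24 (SE, adjusted p = 0.103 from limma), the largest of the 35 and outside the 5th to 95th percentile of all genes. Tfeb had a difference of 0.63 (adjusted p = 0.168), with 6.63 and 5.24 FPKM in Control-tagged and 3.99 and 3.01 in Blank-tagged libraries.

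Gaa had 26.5 and 16.4 FPKM in Control-tagged libraries, against 15.1 and 13.8 in Blank-tagged libraries. Its difference of 0.50 (adjusted p = 0.334, limma) came with a wide gap between Control-1 and Control-2. Scarb2 had 34.4 and 36.8 FPKM in Control-tagged against 27.3 and 26.4 in Blank-tagged libraries, a difference of 0.39 (adjusted p = 0.0870). Glb1 had a difference of 0.22 (interval -0.16 to 0.61), Ctsd 0.26 (-0.08 to 0.60) and Lamp1 0.10 (-0.19 to 0.38). With the trend on GC content and length removed 4 members passed the threshold, namely Gla, Neu1, Lamp2 and Scarb2. Of 5 epithelial markers, Krt18 and Krt8 were called higher in Control-tagged libraries (1.19 and 0.84 on the log2 scale). Krt18 had 1776 and 1779 FPKM in Control-tagged against 807 and 754 FPKM in Blank-tagged libraries. The others were not called. Means in Control-tagged and Blank-tagged libraries were 4.09 and 2.545 FPKM for Cldn4, 5.225 and 3.915 for Epcam, and 11.8 and 12.1 for Cdh1. The part of this difference between the sets in the lysosomal values was not tested.

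**Figure D4:**
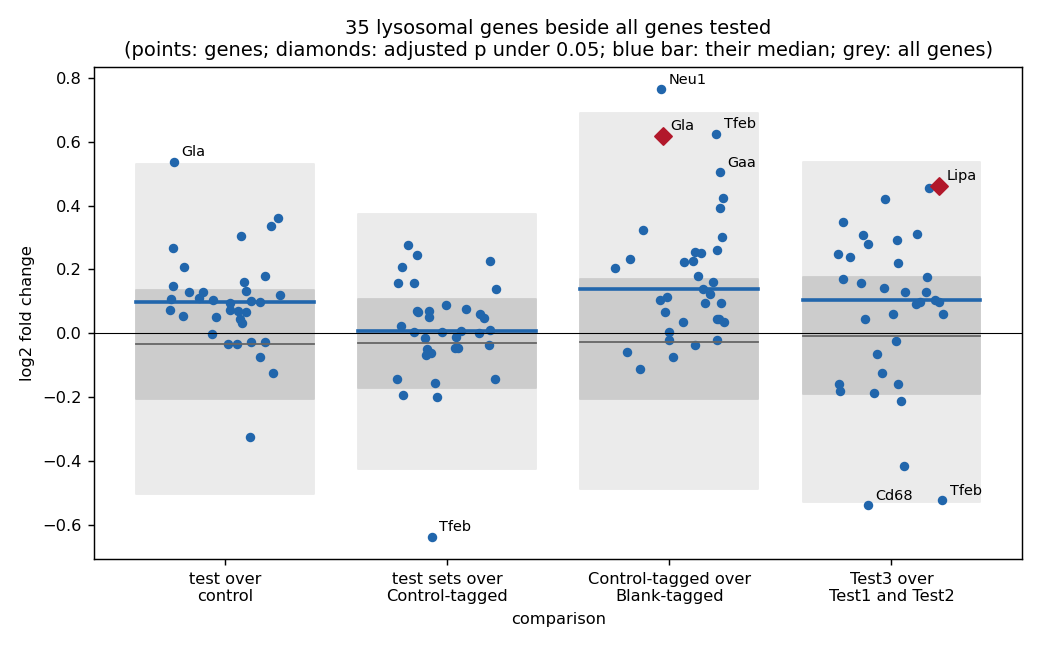
Log2 fold changes of the 35 lysosomal genes in the 4 comparisons. Points are genes, diamonds are genes with an adjusted p under 0.05, the blue bar is their median, and grey shows the median, the quartiles and the 5th to 95th percentile of all 11169 genes. Gla is the diamond of Control-tagged over Blank-tagged and Lipa that of Test3 over Test1 and Test2, while both comparisons of test with control libraries have none.

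The fourth comparison asked whether the test supernatants were alike, by setting Test3 against the mean of Test1 and Test2. Lipa was the 1 member called higher in Test3 and no member was called lower, where 6.48% of all genes were called, 3.35% higher and 3.13% lower. At an unadjusted p under 0.05 there were 10 members, against 22.7% of all genes. The fold change was positive for 24 of 35 genes, with a median of 0.10 (all genes -0.01, with 48.9% positive). All 5 genes of lipid breakdown were positive, with a median of 0.25, as were 7 of 8 proteases, with a median of 0.16. Of the membrane proteins and of the V-ATPase genes 4 of 6 each were positive, and 4 of 8 hydrolases, while both regulators were negative.

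Lipa, which releases cholesterol and fatty acids from lipids taken up into the lysosome, had 17.7 and 18.3 FPKM in Test3, against 13.7 and 12.9 in Test1 and 11.3 and 13.4 in Test2. Its Test3 libraries were the highest of all 10, since the control libraries had 13.0 to 14.1 FPKM. The difference was 0.46 ± 0.11 on the log2 scale (SE), with an adjusted p of 0.0358 (limma). The call was lost with 7 of the 10 libraries left out in turn (adjusted p up to 0.192 without Test3-1) and with equal totals (0.0564). It was kept without Test2-2, Control-1 or Control-2 and with the GC and length trend removed (0.0176).

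Tpp1 had 29.2 and 34.0 FPKM in Test3, against 17.8 and 21.3 in Test1 and 26.0 and 26.8 in Test2, so that the Test1 libraries were the lowest. Its difference was 0.46 ± 0.13 (SE, adjusted p = 0.0723 from limma). Hexa had 36.0 and 39.8 FPKM in Test3, against 23.2 and 26.1 in Test1 and 33.8 and 30.2 in Test2, a difference of 0.42 (adjusted p = 0.0540). Hexa passed the threshold with equal totals (0.0396), with quantile normalization (0.0431) and with the GC and length trend removed (0.00198).

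Cd68 and Tfeb were lower in value in Test3 without passing the test. Cd68 had 5.27 and 6.04 FPKM in Test3, against 6.56 and 9.66 in Test1 and 9.56 and 9.19 in Test2, a difference of -0.54 (adjusted p = 0.136, limma). Tfeb had 2.50 and 2.46 FPKM in Test3, against 2.25 and 4.30 in Test1 and 4.86 and 5.21 in Test2, a difference of -0.52 (adjusted p = 0.152). For Tfeb the library Test1-1 was lower than both Test3 libraries, and without it the difference was -0.70 (adjusted p = 0.0384). Glb1 had a difference of -0.02, Ctsd 0.06 and Lamp1 0.10. Outside the 35 genes, 1 of 77 pathway genes was called, Sqstm1 (the autophagy receptor p62), with 354 and 328 FPKM in Test3 against 208 to 295 in Test1 and Test2 (0.51, adjusted p = 0.0259). Of 5 epithelial markers, the keratins Krt18 and Krt8 were called lower in Test3 (-0.87 and -1.07 on the log2 scale). The other 3 were not called, with means of 10.3 FPKM in Test3, 7.90 in Test1 and 5.74 in Test2 for Cldn4, 6.12 in Test3, 5.86 in Test1 and 6.58 in Test2 for Epcam, and 10.8 in Test3, 13.1 in Test1 and 9.12 in Test2 for Cdh1. The part of this difference in the lysosomal values was not tested.

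Libraries of one set differed in many of the 35 genes at once. This spread within sets is the error of the comparisons between sets, while the comparison of all test with all control libraries also holds differences between sets in its error. Test1-1 was below Test1-2 in 22 of 35 genes, with a median difference of -0.16 on the log2 scale (all genes -0.03), and Test2-1 exceeded Test2-2 in 26. Control-1 exceeded Control-2 in 25 genes, with a median of 0.21 (all genes 0.03). Gaa had 13.6 and 22.4 FPKM in the Test1 libraries, a difference of -0.69 on the log2 scale, and 26.5 and 16.4 FPKM in the Control-tagged libraries, a difference of 0.66. Atp6v1h ran the other way, with differences of 0.36 in Test1 and -0.48 in the Control-tagged libraries.

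These differences went with the base composition of the transcripts. Over the 34 of the 35 genes with a known GC content, the correlation of GC content with the difference within a set was -0.69 in Test1, 0.45 in Test2, -0.13 in Test3, 0.62 in Control and 0.48 in Blank. Over all genes with a GC content it was -0.45 in Test1, 0.27 in Test2, -0.20 in Test3, 0.51 in Control and 0.10 in Blank. These are correlations across genes of the same library pair, which share depth and base composition, and genes are not independent replicates. The range of GC content ran between 40.6% for Lamp2 and 61.8% for Tfeb, with 59.2% for Gaa, 43.5% for Atp6v1h and 53.3% for Glb1. With the GC and length trend of each library removed, no member was called between test and control libraries, and the fold change of Glb1 was 0.04 (adjusted p = 0.826, limma). The source of the trend was not tested.

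**Figure D5:**
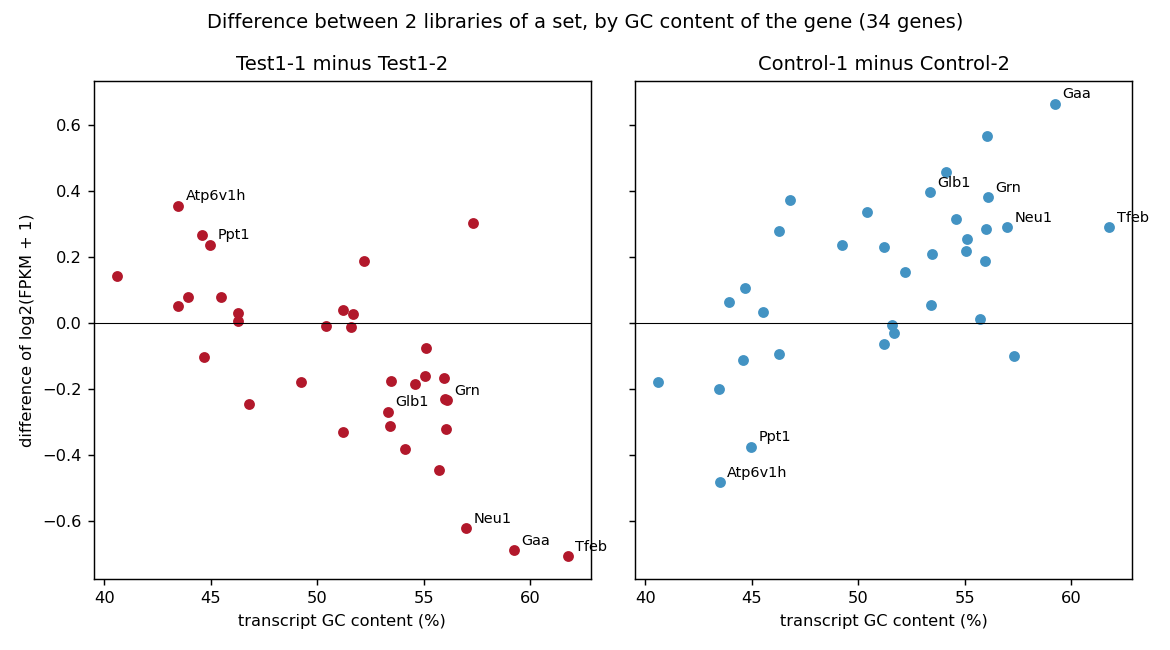
Difference of log2(FPKM + 1) between the 2 libraries of the Test1 set and of the Control set, against the transcript GC content in percent, for 34 lysosomal genes (points). GC-rich genes such as Gaa and Tfeb are low in Test1-1 and high in Control-1, and genes of low GC content such as Atp6v1h and Ppt1 are the reverse.

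The bases CACGTG were common in the promoters of these genes. RefSeq promoters were found for 30 of the 35. Read on both strands, CACGTG was present in 10 of the 30 (33.3%), against 12.2% of the 8905 tested genes with a promoter and 8.09% of all 27025 genes with a promoter. A gene with several promoters was counted once, if any of them held the bases. The longer GTCACGTG, which contains CACGTG, was present in 7 (23.3%), against 5.12% of tested genes. The longest form searched, which extends GTCACGTG further, was in 0 of the 30 promoters, against 0.853% of tested genes. That form is so rare that 30 promoters cannot show whether it is depleted. Besides the 4 genes printed above, the carriers of CACGTG were Mcoln1, Atp6v0d1, Atp6v1a, Ctsl, Gaa and Ctsa. TTCNNNGAA, the core to which STAT factors bind, was in 1 of the 30 promoters (3.33%, against 8.32% of tested genes). A spaced repeat of GAAA, also searched, was in 1 of the 30 (3.33%, against 3.65% of tested genes). The 10 genes with CACGTG had a median log2 fold change between test and control of 0.08 and the 20 without it 0.09. Between Control-tagged and Blank-tagged libraries the medians were 0.19 and 0.16, and between Test3 and the other test sets 0.08 and 0.13. A match of letters is a description of the sequence and not of binding.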

How the data were processed

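RNA of PyMt cells was sequenced at BGI on an Illumina instrument and aligned with Bowtie to mm10. The authors deposited gene levels as FPKM, 1 column per library; read depth is unknown, and neither the program behind the values nor the annotation is given in the sources used here. Groups follow the sample titles. The methods of the study name tests for counts, so limma was used on FPKM instead. On log2(FPKM + 1), for the 11169 genes that reached 1 FPKM in 4 or more of 10 libraries, limma 3.58.1 (R 4.3.3, trended eBayes, Benjamini-Hochberg adjustment over all genes, two-sided, threshold 0.05) compared 6 test with 4 control libraries. A fit with 5 label sets gave the other comparisons. Fold changes on this scale understate changes of low genes. For single genes the difference of mean log2 values was also tested by exact permutation (two-sided) over the 210 ways to divide the libraries, whose smallest possible p is 0.00476.

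The 35 genes and the pathway, marker and motif lists were chosen with earlier results of these data known. Values per library are given for genes called and for Glb1, Ctsd, Lamp1 and Tfeb. They are given too for the 4 largest differences between Control-tagged and Blank-tagged libraries, and between Test3 and the other test sets. Values of single libraries are also given for Hexa, Scarb2, Cd63, Atp6v0c and Ctsz, which this rule does not cover. Gene positions and promoters came from RefSeq (GRCm38.p6), GC contents from GENCODE transcripts. Spreadsheet dates were turned back into 24 symbols. Alternatives covered pseudocount, filter, scaling, variance trend, replicate block, label set as unit, choice of control, and leaving out a library or a test set. Of these, the Blank-tagged libraries alone as control and removal of the GC and length trend were chosen after seeing the data. The procedure was tested on simulated data. Python 3.11.15, pandas 2.3.3 and matplotlib 3.10.9 were used.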

Additional observations from a re-analysis of the deposited data

Results flagged for a closer look

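Lipa differed between test supernatants, with a log2 difference of 0.46 between Test3 and the mean of Test1 and Test2 (adjusted p = 0.0358, limma with the label sets as groups). In the 4 control libraries 5 single values stood far from the other 3: Smpd1 at 10.6 FPKM in Blank-1 (lowest), Ctsc at 0.67 FPKM in Blank-1 (lowest), and Psap at 384, Tpp1 at 28.5 and Ctsa at 58.4 FPKM in Control-1 (highest). These came from 70 such checks, and chance gives about 1 in 20.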

How the results depend on the processing

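Between test and control libraries, 0 members were called in either direction in most alternatives; 2 were called higher (Gla and Atp6v0c) against the Blank-tagged libraries alone, and 0 to 2 with 1 library left out (2 without Control-1). Against Control-tagged libraries, 1 member was called lower (Tfeb) with the GC and length trend removed, and 0 to 1 with 1 library left out (1 without Test1-2). The 1 call for higher levels in the Control-tagged set, relative to the Blank-tagged one, became 0 with no filter, equal totals or the replicate block, 4 with the GC and length trend removed, and 0 to 1 with 1 library left out. The 1 member higher in Test3 became 2 with quantile normalization (Hexa and Lipa), 0 with the block, 4 with the trend removed (Hexa, Gusb, Lipa and Mcoln1), and 0 to 3 with 1 library left out (3 without Control-1 or Control-2). With equal totals the count stayed at 1, but the gene was Hexa. Scarb2 was the 1 member lower in Test3 with the trend removed, and 0 to 1 were lower with 1 library left out (Tfeb without Test1-1). Among the genes followed singly through the alternatives, values that changed sign were those of Glb1 (-0.022 with equal totals, -0.067 against Control-tagged libraries alone, -0.0326 without Blank-2 up to 0.1478 without Control-1), Ctsd (-0.0353 with quantile normalization and -0.037 against Control-tagged libraries alone) and Lamp1 (-0.0174 with equal totals, -0.0626 with quantile normalization). The cause was not tested.

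The labels do not say that library numbers pair the sets, and deviations of same-numbered libraries correlated between -0.52 and 0.26. With the replicate block, 222 genes were higher and 332 lower between test and control (330 and 549 without it), and adjusted p was 0.0799 for Gla and 0.0716 for Lipa (limma).

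Over all genes, equal totals moved the median between test and control to -0.10, with 261 higher and 775 lower. With the GC and length trend removed 536 were higher and 519 lower, and with no filter 209 and 339. Against Control-tagged libraries alone 36 were higher and 8 lower, against Blank-tagged alone 771 and 922. The label set as a random effect gave 152 and 150, and as the unit 0 and 0 (limma, with 1426 genes at an unadjusted p under 0.05). Unknown read depth limits Ctsc, Neu1 and Tfeb most, the lowest of the 35.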
